A study of Mus musculus with 42 samples.

Results

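The clustered protocadherin genes are 58 of the 52636 gene lines in the count files, chosen as every gene whose symbol starts with Pcdha, Pcdhb, Pcdhga, Pcdhgb or Pcdhgc. They lie head to tail on the plus strand of chromosome 18 (mm10) in 3 neighbouring clusters: 14 alpha genes between 36930184 and 37187661, 22 beta genes between 37264938 and 37524479, and 22 gamma genes between 37661793 and 37841873. Samples came from mice of 3 genotypes: Euploid, Ts65Dn and Ts65Dn;Brwd1+/-. Ts65Dn mice are a model of Down syndrome with an extra copy of many genes, Brwd1 among them, and the third genotype was made by crossing Ts65Dn mothers with males carrying a heterozygous Brwd1 mutation, the allele repro5, to bring Brwd1 back to the euploid number of copies. RNA-seq was done on primary neurons cultured from forebrain at embryonic day 16, 3 libraries for each genotype. Peak lists came from adult male hippocampus: SMARCA2/4 ChIP-seq, which maps the ATPase subunits of the BAF chromatin remodeller, in whole tissue of mice of 6 to 8 weeks, with tissue of 2 animals pooled per library, and ATAC-seq, which maps open chromatin, in sorted NeuN+ neuronal nuclei. All groups share a background mixed from DBA/2J and B6EiC3Sn/J. None of the members lies in the segment that is triplicated in Ts65Dn. The cultures were started from embryos and, by the paper, grown for days in vitro with AraC to hold back glial cells before collection. They hold neurons and other cells, while the peaks are from adult tissue of males. RNA and peaks thus do not come from the same cells.

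Clustered protocadherins are cadherin-like cell-surface proteins that neurons use to tell their own branches from those of other neurons. Each variable exon of the clusters has its own promoter, and a neuron is thought to switch on a random few of them through promoter DNA demethylation and loops made by CTCF and cohesin, which gives single neurons different surface codes. The 5 C-type isoforms (Pcdhac1, Pcdhac2, Pcdhgc3, Pcdhgc4 and Pcdhgc5) sit at the 3' ends of the alpha and gamma clusters and are not chosen at random in this way. Bulk RNA averages over many neurons, so a level here can hold both the share of cells that use a promoter and the output per cell.

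The structure of the clusters limits what a gene count can say. Alpha genes all splice to the same constant exons, as do gamma genes, and reads in those exons name no single gene. In the annotation used here, 7.0 to 51.43% of the exon bases of an alpha gene belonged to no other gene model. The range was 0 to 68.53% in the gamma cluster, while 19 of the 22 beta genes, which have no constant exons, were fully unique. Levels were therefore compared between genes mainly as CPM (counts scaled to the library total) per kilobase of unique exon. Shares of summed CPM and the choice of genes by mean CPM are not per length. Pcdhga10 had 0 unique bases once the antisense model Gm26672 was counted, and had 0 counts in every library, which says nothing of its expression. Pcdha4 had 7.0% and Pcdha11 16.83% unique bases; each had at most 4 counts in a library, and Pcdha8 was also too low to test. After a filter on low counts 54 members were tested: 11 alpha, 22 beta and 21 gamma.

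The 9 libraries held 17270070 to 25892802 counts in genes, of which the members had 0.0731 to 0.09%. Brwd1 RNA was at 89.3 ± 3.66 CPM in euploid, with 127 ± 2.13 CPM in Ts65Dn and 138 ± 12.3 CPM in Ts65Dn;Brwd1+/- cultures (mean ± SD, n = 3), so it was not lower in the libraries labelled Ts65Dn;Brwd1+/- than in Ts65Dn. These 3 libraries also had Xist at 1407 to 1980 CPM and a summed level of 4 Y-linked genes of at most 0.149 CPM, whereas the other 6 had Xist at 0.526 to 1.12 CPM and the Y-linked genes at 194 to 223 CPM. The labels call every culture pooled male and female; in the 2 comparisons with Ts65Dn;Brwd1+/-, genotype and sex of the embryos cannot be told apart, while euploid and Ts65Dn libraries overlapped in both measures. Neuron markers were lowest in the Ts65Dn cultures: the summed level of 12 such genes ranged over 4474 to 5461 CPM in euploid libraries, 1162 to 2922 CPM for Ts65Dn and 4793 to 5960 CPM for Ts65Dn;Brwd1+/-, and the 1162 was Ts65Dn replicate 3. Fewer neurons and less RNA per neuron cannot be told apart in bulk samples. Ts65Dn replicate 3 was also the library with the lowest level of 35 of the 54 members tested.

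Per unique length, Pcdhgc3 stood far above every other member. Its level was 82.6 ± 1.45 CPM per kb in euploid cultures (mean ± SD, n = 3), followed among the C-type isoforms by Pcdhac2 at 21.7 ± 2.11, Pcdhgc4 at 14.5 ± 0.508, Pcdhgc5 at 6.00 ± 0.446 and Pcdhac1 at 0.423 ± 0.173 CPM per kb. No 2 neighbours in this order overlapped between libraries. The order was the same in the other 2 genotypes, where the only neighbours whose libraries overlapped were Pcdhac2 and Pcdhgc4 in Ts65Dn;Brwd1+/-, at 17.7 and 14.4 CPM per kb. The variable genes all lay below Pcdhac2, and some of the gamma cluster lay above Pcdhgc5. Tested variable alpha genes ran from 0.295 (Pcdha1) to 5.82 (Pcdha12) CPM per kb in euploid, with a median of 2.63. Beta genes ran from 0.2 (Pcdhb1) to 6.17 (Pcdhb9) with a median of 1.86, and variable gamma genes from 0.418 (Pcdhgb8, a polymorphic pseudogene) to 13.5 (Pcdhgb7) with a median of 5.24 CPM per kb. In Ts65Dn the medians were 0.895, 1.16 and 5.07 CPM per kb and in Ts65Dn;Brwd1+/- 2.62, 2.34 and 5.23, in the same order of clusters. Every genotype expressed most of the family, with 52 members at a mean of at least 1 CPM in euploid and 51 in each of the other genotypes.

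**Figure D1:**
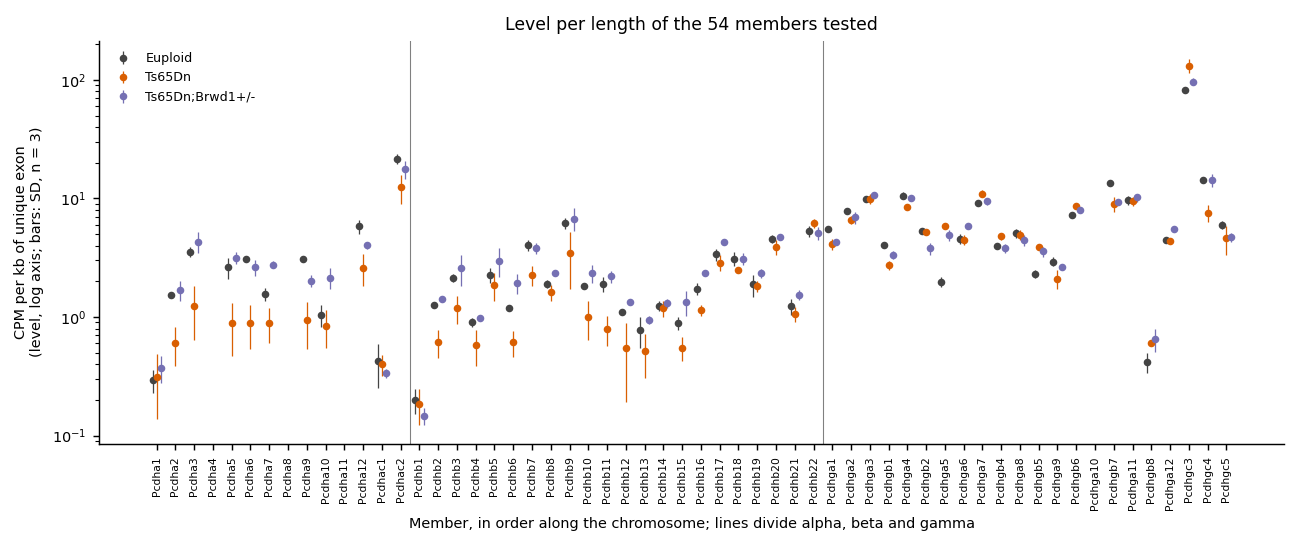
Level of each of the 54 tested members in CPM per kb of unique exon on a log axis, in order along the chromosome, as mean and SD of 3 libraries per genotype. Pcdhgc3 is highest at 82.6 to 132 CPM per kb, and the Ts65Dn points of most alpha and many beta genes lie below those of the other genotypes.

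The first comparison, Ts65Dn against euploid, asks what the trisomy does to these genes in culture. The calls in the alpha and beta clusters were all lower in Ts65Dn, and those in the gamma cluster went both ways. Of the 54 members tested, 23 fell and 6 rose (edgeR quasi-likelihood test, adjusted p under 0.05 over all 17173 genes), which is 42.6% lower and 11.1% higher, where 21.1% of all genes tested were lower and 25.6% higher. In both directions together, 53.7% of members and 46.7% of all genes were called. The alpha cluster had 8 of 11 lower and none higher, the beta cluster 9 of 22 lower and none higher, and the gamma cluster 6 of 21 lower and 6 higher. The median log2 fold change was -1.17 in alpha, -0.60 in beta and -0.04 in gamma genes, and 0.04 over all genes. All 3 Ts65Dn libraries lay below all 3 euploid libraries for 30 members and above them for 7; over all genes the groups were apart in this way for 25.5% and 31.2%, or 56.7% in both directions. Without Ts65Dn replicate 3 the counts were 20 lower and 3 higher, and without euploid replicate 3 they were 24 lower and 3 higher; Pcdhga7, Pcdhgb4 and Pcdhgb6 were the calls of a rise that were lost in both.

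The second comparison, Ts65Dn;Brwd1+/- against Ts65Dn, sets the libraries labelled as carrying the Brwd1 mutation against the trisomic ones. As given above, Brwd1 RNA was not lower in them, so these gene counts do not show the allele. By qPCR with separate primers in embryonic forebrain, another tissue and measure, the paper reports that the cross restored Brwd1 RNA. In this comparison 32 of the 54 members were higher and 4 lower (59.3% and 7.41%). Of all genes, 27.6% were higher and 30.5% lower by the same edgeR test. In both directions 66.7% of members and 58.1% of all genes were called. The calls in the alpha and beta clusters again went 1 way: 9 of 11 alpha and 18 of 22 beta genes rose and none fell, with a median log2 difference of 1.34 and 0.75. Gamma genes were mixed, with 5 of 21 higher and 4 lower and a median of 0.06; the median over all genes was 0.00046. The 3 Ts65Dn;Brwd1+/- libraries lay above all Ts65Dn libraries for 34 members and below for 6, where all genes gave 33.6% and 34.9%, or 68.4% in both directions. Since these libraries differ from Ts65Dn in Xist and Y-linked RNA as well, the allele and the sex of the embryos cannot be told apart here.

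The third comparison, Ts65Dn;Brwd1+/- against euploid, called the fewest members of the 3. It had 8 members higher and 3 lower, or 14.8% and 5.56%, where 14% of all genes were higher and 15.2% lower; in both directions the share was 20.4% of members and 29.2% of all genes. The share of members that rose was near that over all genes. The groups did not overlap for 15 members above and 8 below euploid, where the shares over all genes were 22.3% and 23.6%, or 45.9% together. The alpha cluster had 2 higher, the beta cluster 2 higher, and the gamma cluster 4 higher and 3 lower. Without euploid replicate 3 the count was 6, which included Pcdha8, a gene that the low-count filter kept out of the main test. Only 5 of the 11 remained there: Pcdhga1, Pcdhgb2, Pcdhga5, Pcdhgb5 and Pcdhgb7. These 5 genes were called under every alternative tried. Without Ts65Dn;Brwd1+/- replicate 1 the count was 7. The 3 comparisons share libraries pairwise, so a member that is low in Ts65Dn enters the first 2 with opposite signs from the same 3 libraries. With that in mind, 20 members were called lower in the first and higher in the second. The other way round were 3 (Pcdhga7, Pcdhgb4 and Pcdhgc3), and 12 were called in none. Such patterns were not counted over all genes, so these counts are only a description. In fits that left out 1 library, the rises of Pcdhga7 and Pcdhgb4 in Ts65Dn were each lost in 5 of 6. The fall of Pcdhga7 in the second comparison was lost in 4 of 6.

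**Figure D2:**
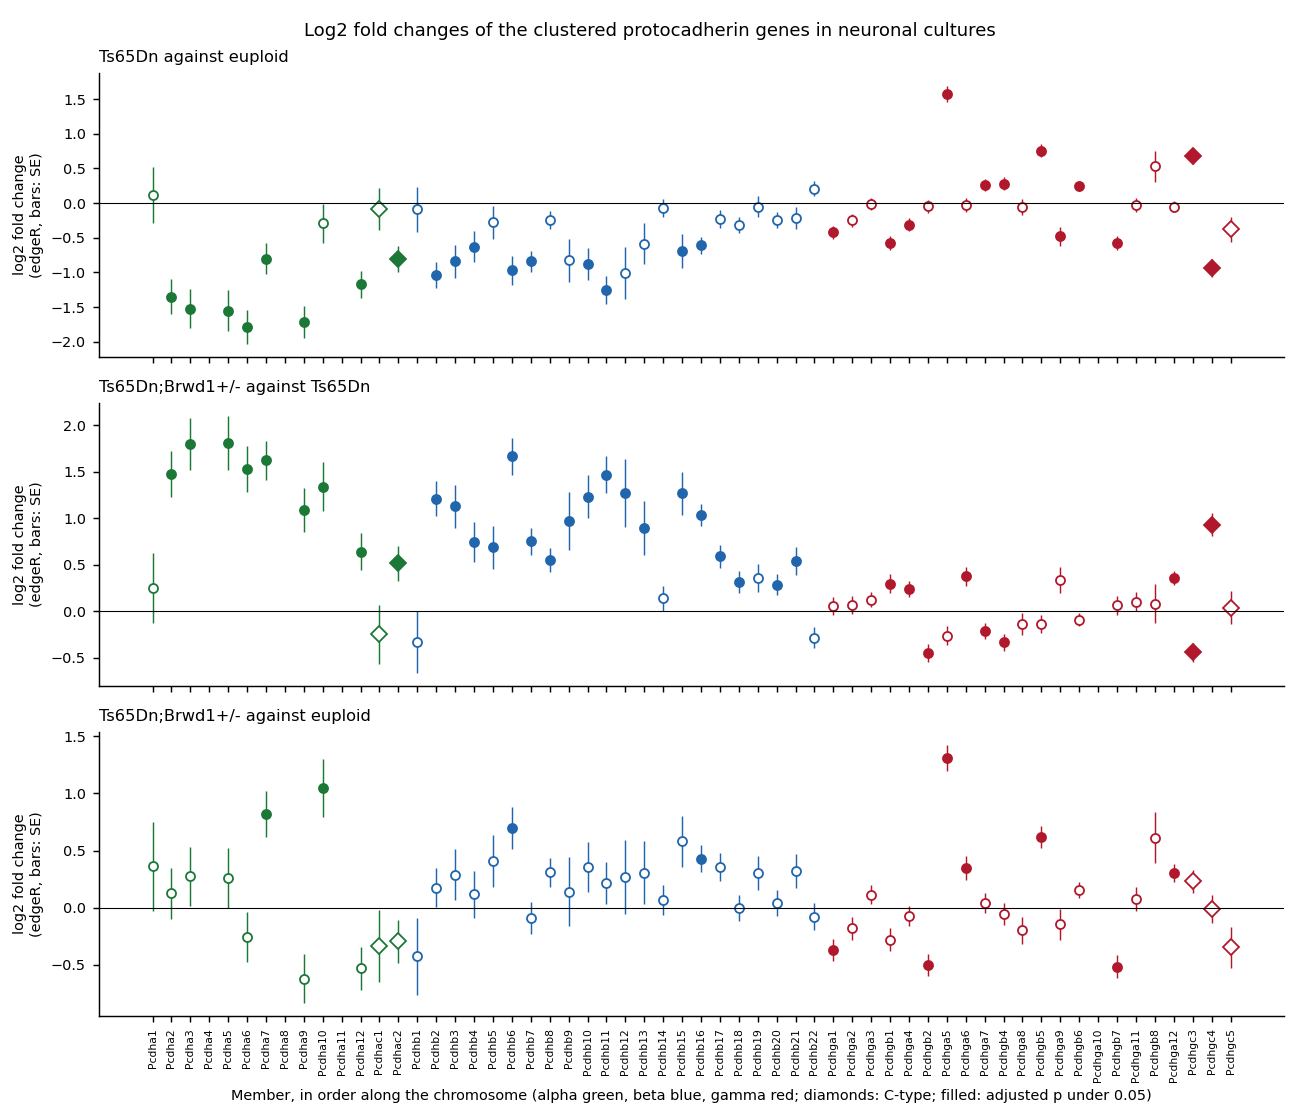
Log2 fold change with SE of each tested member in the 3 comparisons, in order along the chromosome, with filled symbols for an edgeR adjusted p under 0.05. In the upper panel the called alpha and beta genes are all below 0, with Pcdha6 lowest at -1.79, in the middle panel they are all above 0, and Pcdhga5 is the highest point of the upper and lower panels.

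Among the C-type isoforms, 2 fell and 1 rose in Ts65Dn. Pcdhgc3, the most abundant isoform and one that other cell types of the brain also express, was at 149, 149 and 153 CPM in euploid libraries, with 201, 258 and 259.8 for Ts65Dn and 164, 183 and 183 for Ts65Dn;Brwd1+/-. Every Ts65Dn library was above every library of the other genotypes. It rose by a log2 difference of 0.67 (SE 0.10, edgeR adjusted p = 0.00073) in Ts65Dn and fell by 0.44 (SE 0.10, adjusted p = 0.0042) from Ts65Dn to Ts65Dn;Brwd1+/-; against euploid the Ts65Dn;Brwd1+/- difference was 0.23 (SE 0.10, adjusted p = 0.12). Its share of the CPM of all members was 18.4 ± 0.962% in euploid, with 30.9 ± 4.43% in Ts65Dn and 20.6 ± 2.12% in Ts65Dn;Brwd1+/- (mean ± SD, n = 3).

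Pcdhgc4, an isoform tied to neuronal survival, moved the other way. Its level was 50.2, 52.1 and 48.5 CPM in euploid, with 28.4, 28.9 and 21.5 in Ts65Dn, and 56.9, 44.6 and 48.3 in Ts65Dn;Brwd1+/- libraries. The 3 Ts65Dn libraries were the lowest of the 9 and the other groups overlapped. The log2 difference was -0.94 (SE 0.12, edgeR adjusted p = 0.00033) in Ts65Dn against euploid, 0.93 (SE 0.12, adjusted p = 0.00014) in Ts65Dn;Brwd1+/- against Ts65Dn, and -0.01 (SE 0.12, adjusted p = 0.97) in Ts65Dn;Brwd1+/- against euploid. Pcdhac2, the alpha isoform on which serotonergic axons depend, was at 64.8, 72.3 and 59.7 CPM in euploid, with 40.6, 46.2 and 25.8 in Ts65Dn, and 63.7, 49.1 and 47.7 in Ts65Dn;Brwd1+/-. It fell in Ts65Dn by 0.81 on the log2 scale (SE 0.19, adjusted p = 0.0072) and rose from there by 0.51 (SE 0.19, adjusted p = 0.043) in Ts65Dn;Brwd1+/-. The second of these calls was lost in 5 of the 6 fits that left out 1 library, with adjusted p = 0.052 to 0.16, and Ts65Dn replicate 2 was the only library without which it remained.

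The other C-type isoforms passed the test in no comparison. Pcdhgc5 was at 27.5, 29.8 and 25.6 CPM in euploid, with 24.1, 25.3 and 14.4 in Ts65Dn, and 22.1, 19.7 and 23.3 in Ts65Dn;Brwd1+/-, and its log2 differences were -0.38 (adjusted p = 0.10), 0.03 (adjusted p = 0.88) and -0.35 (adjusted p = 0.18) in the 3 comparisons in turn. Pcdhac1 was near the bottom of the range, at 0.591 to 1.45 CPM in euploid, with 0.794 to 1.18 in Ts65Dn and 0.802 to 0.932 in Ts65Dn;Brwd1+/- libraries. Its log2 differences of -0.08, -0.25 and -0.33 had SEs of 0.30 to 0.32, so changes of this size were not detectable at its depth.

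**Figure D3:**
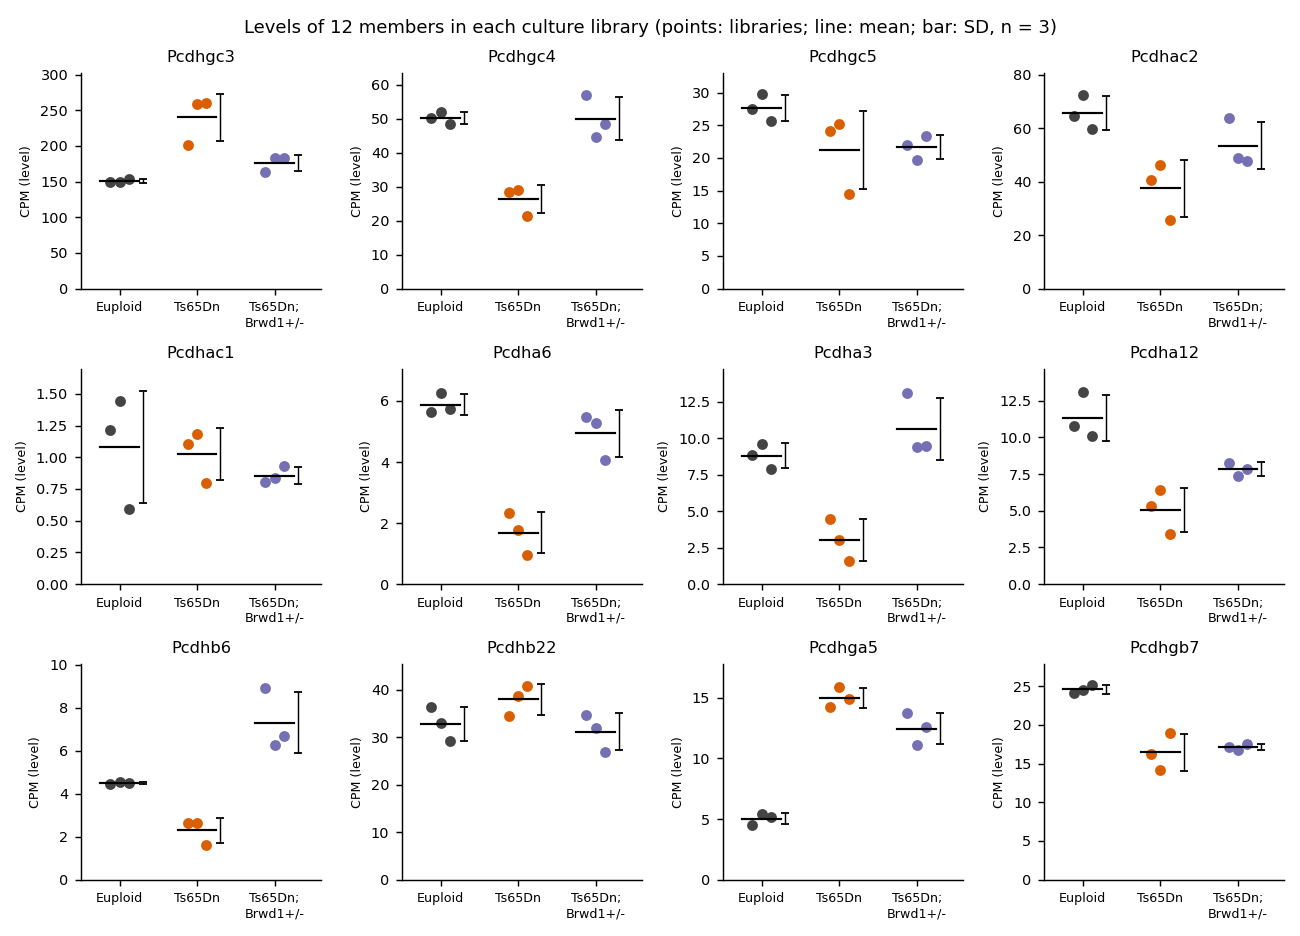
CPM of 12 members in each of the 9 culture libraries, with the mean and SD of 3 libraries per genotype and axes that start at 0. The Ts65Dn points are highest for Pcdhgc3 at 201 to 259.8 CPM and lowest for Pcdhgc4 at 21.5 to 28.9 CPM, and the euploid points stand apart from both other genotypes for Pcdhga5 and Pcdhgb7.

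The variable alpha genes held the largest fall of the family in Ts65Dn. Of the 9 tested, 7 fell, by log2 differences from -0.80 (Pcdha7, not called without euploid replicate 2, adjusted p = 0.054) to -1.79 (Pcdha6), and Pcdha1 and Pcdha10 were not called. Pcdha6 was at 5.62, 6.27 and 5.73 CPM in euploid, with 2.32, 1.78 and 0.970 in Ts65Dn, and 5.48, 5.28 and 4.06 in Ts65Dn;Brwd1+/- libraries. No Ts65Dn library reached the range of the other groups. The level of Pcdha6 was 3.45-fold lower in Ts65Dn than in euploid (log2 -1.79, SE 0.25, edgeR adjusted p = 0.0004) and 2.89-fold higher in Ts65Dn;Brwd1+/- than in Ts65Dn (log2 1.53, SE 0.25, adjusted p = 0.00051). Pcdha9 had 7.22, 7.89 and 7.96 CPM in euploid, with 3.47, 1.87 and 1.63 in Ts65Dn, and 5.61, 4.45 and 4.92 in Ts65Dn;Brwd1+/-. Here the Ts65Dn;Brwd1+/- libraries lay between the other groups without overlap: the log2 difference was -1.71 (SE 0.23, adjusted p = 0.00037) in Ts65Dn, 1.09 (SE 0.24, adjusted p = 0.003) from Ts65Dn to Ts65Dn;Brwd1+/-, and -0.62 (SE 0.21, adjusted p = 0.052) in Ts65Dn;Brwd1+/- against euploid, short of the threshold.

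Pcdha3 and Pcdha5 had the largest rises from Ts65Dn to Ts65Dn;Brwd1+/-. Pcdha3 was at 8.87, 9.64 and 7.91 CPM in euploid, with 4.49, 3.06 and 1.59 in Ts65Dn, and 13.1, 9.40 and 9.47 in Ts65Dn;Brwd1+/-, a log2 difference of -1.52 (SE 0.29, edgeR adjusted p = 0.0021) in the first comparison and 1.80 (SE 0.28, adjusted p = 0.0004) in the second. Pcdha5 was at 6.26, 7.32 and 4.91 CPM in euploid, with 2.90, 2.42 and 0.970 in Ts65Dn, and 7.39, 8.23 and 6.60 in Ts65Dn;Brwd1+/-, a log2 difference of -1.55 (SE 0.30, adjusted p = 0.0024) and 1.81 (SE 0.30, adjusted p = 0.00051). For both genes Ts65Dn replicate 3 was the lowest of the 9 libraries. Pcdha12, the highest variable alpha gene per unique length in euploid, was at 10.8, 13.1 and 10.1 CPM in euploid, with 5.34, 6.41 and 3.39 in Ts65Dn, and 8.29, 7.34 and 7.87 in Ts65Dn;Brwd1+/-. It fell by 1.17 on the log2 scale (SE 0.20, adjusted p = 0.0012) in Ts65Dn and rose by 0.64 (SE 0.20, adjusted p = 0.019) in the second comparison. That rise was not called without Ts65Dn;Brwd1+/- replicate 1 (adjusted p = 0.058) or replicate 3 (adjusted p = 0.051).

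Of the 11 alpha genes tested, Pcdha7 and Pcdha10 were called above euploid in Ts65Dn;Brwd1+/-. Pcdha7 was at 3.30, 3.77 and 2.96 CPM in euploid, with 2.28, 2.27 and 1.19 in Ts65Dn, and 6.24, 5.45 and 6.00 in Ts65Dn;Brwd1+/-, and Pcdha10 was at 2.91, 2.94 and 1.96, then 2.85, 2.12 and 1.37, then 6.28, 4.17 and 5.59 CPM. Against euploid the log2 differences were 0.82 (SE 0.20, edgeR adjusted p = 0.011) and 1.05 (SE 0.26, adjusted p = 0.012), and neither was called without euploid replicate 3 (adjusted p = 0.057 and 0.058). Pcdha10 also lost its call without Ts65Dn;Brwd1+/- replicate 1 (adjusted p = 0.056) or replicate 3 (adjusted p = 0.051). Pcdha8, which the filter on low counts left out, had 4, 1 and 3 counts in euploid, with 1, 3 and 3 in Ts65Dn and 18, 12 and 10 in Ts65Dn;Brwd1+/-, which lay above all others. With at most 4 counts in the other groups, it could pass a filter only through the group where it is high. No test of it is given, although some alternative fits kept it and counted it among their calls. Up to 25.31% of the 50-base words in the unique exons of an alpha gene (Pcdha7) also occur in another member, so reads of these genes are partly shared between near-identical exons.

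The beta cluster, whose genes are single exons with promoters of their own, had 7 of its 9 falls in Ts65Dn among its first 13 genes. Among Pcdhb1 to Pcdhb13, 7 of 13 (53.8%) fell, with a median log2 difference of -0.84, and among Pcdhb14 to Pcdhb22 2 of 9 (22.2%, Pcdhb15 and Pcdhb16) fell, with a median of -0.23, where 21.1% of all genes fell. Single libraries decided 2 of these calls, each lost in 4 of 6 fits: Pcdhb15 without euploid replicate 1 or 2 or Ts65Dn replicate 1 or 3 (adjusted p = 0.062 to 0.13), and Pcdhb4 without euploid replicate 1 or 2 or Ts65Dn replicate 2 or 3 (adjusted p = 0.06 to 0.11). Across the 22 beta genes the Spearman correlation of this log2 difference with position was 0.495; the genes share the same 6 libraries and their levels also rise with position (0.392), so this is only a description. From Ts65Dn to Ts65Dn;Brwd1+/- the same 2 stretches had 12 of 13 (92.3%) and 6 of 9 (66.7%) genes higher, where 27.6% of all genes were, with medians of 0.96 and 0.36, and the correlation with position was -0.352. Variable genes of the alpha and gamma clusters gave correlations of -0.05 (9 genes) and 0.201 (18 genes) in Ts65Dn against euploid.

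Pcdhb11 had the largest fall of the cluster and was at 9.75, 7.76 and 7.64 CPM in euploid, with 4.08, 4.10 and 2.38 in Ts65Dn, and 11, 8.79 and 9.36 in Ts65Dn;Brwd1+/- (log2 -1.25, SE 0.20, edgeR adjusted p = 0.00092 in Ts65Dn against euploid). Pcdhb6 had the largest rise in the second comparison: it was at 4.46, 4.56 and 4.50 CPM in euploid, with 2.65, 2.62 and 1.63 in Ts65Dn, and 8.91, 6.28 and 6.68 in Ts65Dn;Brwd1+/-. The 3 groups of Pcdhb6 did not overlap, with log2 differences of -0.97 (SE 0.20, adjusted p = 0.0038), 1.67 (SE 0.20, adjusted p = 6.2e-05) and 0.70 (SE 0.18, adjusted p = 0.017). Pcdhb16 was the other beta gene called in all 3 comparisons, at -0.61, 1.04 and 0.43 on the log2 scale. The third of these calls rested on single libraries: for Pcdhb6 it was lost without euploid replicate 1 (adjusted p = 0.052), euploid replicate 3 (adjusted p = 0.062) or Ts65Dn;Brwd1+/- replicate 1 (adjusted p = 0.08), and for Pcdhb16 in 5 of 6 fits (adjusted p = 0.052 to 0.098), all but that without euploid replicate 1.

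The 3 beta genes with the highest mean CPM over the 9 libraries, a scale that is not per length, were Pcdhb22, Pcdhb9 and Pcdhb17. Pcdhb22, the last gene of the cluster, passed in no comparison and was at 36.4, 33.0 and 29.3 CPM in euploid, with 34.4, 38.8 and 40.9 in Ts65Dn and 34.7, 31.9 and 27.0 in Ts65Dn;Brwd1+/-, with overlapping groups and log2 differences of 0.21, -0.29 and -0.08 (edgeR adjusted p = 0.16, 0.053 and 0.67). Its share of the summed beta CPM was 15.9 ± 0.166% in euploid, with 23.6 ± 5.06% in Ts65Dn and 13.3 ± 0.720% in Ts65Dn;Brwd1+/- (mean ± SD, n = 3). Pcdhb17 was at 17.5, 16 and 13.8, then 15.0, 14.2 and 11.1, then 20.4, 21.1 and 19.1 CPM, and rose in the second comparison by 0.59 (SE 0.13, adjusted p = 0.0027). Pcdhb9 was at 19.8, 20.3 and 16.4 CPM in euploid and 25.6, 16.7 and 19.8 in Ts65Dn;Brwd1+/-, but spread from 5.16 to 15.8 CPM over the Ts65Dn libraries. It rose in the second comparison by 0.96 (SE 0.31, adjusted p = 0.022), a call lost without Ts65Dn replicate 2 (adjusted p = 0.051) or Ts65Dn;Brwd1+/- replicate 1 (adjusted p = 0.085). Its log2 difference of -0.83 in Ts65Dn against euploid had an adjusted p of 0.053. With the replicate number as a block it was -0.90 (adjusted p = 0.015) and passed, as did Pcdhb18 (log2 -0.31, adjusted p = 0.033).

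The gamma cluster held the largest rise in each trisomic genotype against euploid, in Pcdhga5, and no common direction. Pcdhga5 was 2.98-fold higher in Ts65Dn than in euploid: 4.51, 5.43 and 5.14 CPM in euploid against 14.3, 15.9 and 14.9 in Ts65Dn, and 13.7, 11.1 and 12.6 in Ts65Dn;Brwd1+/-. The euploid libraries stood below all 6 others. The log2 difference was 1.58 (SE 0.11, edgeR adjusted p = 7.3e-06) in Ts65Dn and 1.31 (SE 0.11, adjusted p = 3.8e-05) in Ts65Dn;Brwd1+/- against euploid, and -0.26 (SE 0.10, adjusted p = 0.051) between the trisomic genotypes. Pcdhgb5 had the same order of groups, at 10.0, 11.7 and 10.4 CPM in euploid, with 18.1, 18.1 and 18.2 in Ts65Dn and 14.7, 17.9 and 16.9 in Ts65Dn;Brwd1+/-, and rose by 0.76 (SE 0.10, adjusted p = 0.00025) and 0.62 (SE 0.10, adjusted p = 0.0011) against euploid.

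Pcdhgb7 and Pcdhga1 were lower than euploid in both trisomic genotypes. Pcdhgb7 was at 24.1, 24.5 and 25.2 CPM in euploid, with 16.2, 14.2 and 18.9 in Ts65Dn and 17.2, 16.8 and 17.5 in Ts65Dn;Brwd1+/-, with log2 differences against euploid of -0.58 (SE 0.10, edgeR adjusted p = 0.0013) and -0.52 (SE 0.10, adjusted p = 0.0035). Pcdhga1, the first gene of the cluster, fell by 0.42 (adjusted p = 0.0055) and 0.37 (adjusted p = 0.017) on the log2 scale. These 2 and the pair of Pcdhga5 and Pcdhgb5 were the members called in the same direction in both trisomic genotypes against euploid, comparisons that share the 3 euploid libraries. Pcdhgb2 was lower in Ts65Dn;Brwd1+/- than in each other genotype: it was at 14.4, 15.2 and 14.8 CPM in euploid, with 14.9, 13.5 and 14.7 in Ts65Dn and 11.6, 9.29 and 10.5 in Ts65Dn;Brwd1+/-, with log2 differences of -0.04 (adjusted p = 0.73) in the first, -0.45 (SE 0.10, adjusted p = 0.0025) in the second and -0.50 (SE 0.10, adjusted p = 0.0036) in the third comparison. Pcdhgb4 fell by 0.33 on the log2 scale (SE 0.09, adjusted p = 0.011) in the second. Pcdhga3 was among the steadiest, at 23.1 to 29.2 CPM over all 9 libraries and called in no comparison.

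Sums over a cluster weigh its abundant genes most. The alpha sum was 117 ± 11.8 CPM in euploid, with 59.3 ± 17.5 in Ts65Dn and 108 ± 14.3 in Ts65Dn;Brwd1+/- cultures (mean ± SD, n = 3), and all 3 Ts65Dn libraries, at 68.5, 70.2 and 39.1 CPM, lay below the rest. The beta sum was 207 ± 20.2, 164 ± 20.8 and 234 ± 23.3 CPM. The gamma sum was 493 ± 9.16, 555 ± 34.4 and 517 ± 0.988 CPM, and without the C-type isoforms it was 265 ± 7.17, 267 ± 5.89 and 269 ± 6.01 CPM, so the variable gamma genes together differed by less than the spread between libraries. The C-type isoforms summed to 295 ± 8.52, 326 ± 32.3 and 303 ± 5.23 CPM.

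**Figure D4:**
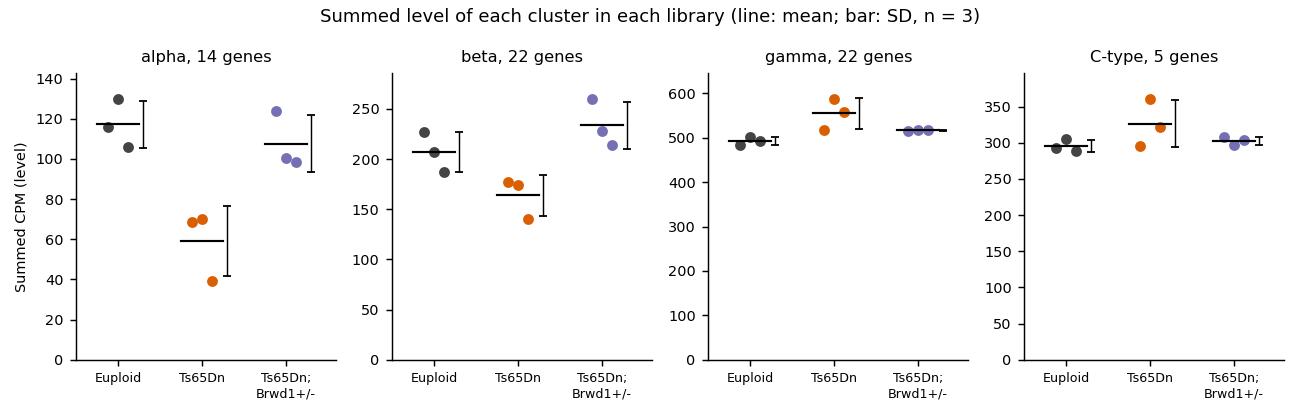
Summed CPM of the alpha, beta and gamma clusters and of the 5 C-type isoforms in each library, with the mean and SD of 3 libraries per genotype and axes that start at 0. The alpha sum is lowest in the 3 Ts65Dn libraries at 39.1 to 70.2 CPM, and the gamma and C-type sums are highest on average in Ts65Dn.

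Markers of the cell types in culture moved with these genes. Of all genes tested, 21.1% fell and 25.6% rose in Ts65Dn against euploid, and 27.6% rose and 30.5% fell in the second comparison. In Ts65Dn against euploid, 10 of 12 neuron, 10 of 12 glutamatergic and 12 of 12 GABAergic interneuron markers fell and none rose, while 12 of 12 cell cycle genes, 5 of 11 astrocyte and 6 of 12 meninges and fibroblast markers rose (edgeR adjusted p under 0.05); 2 astrocyte and 5 meninges and fibroblast markers fell. In Ts65Dn;Brwd1+/- against Ts65Dn, 10 neuron, 9 glutamatergic and 12 GABAergic markers rose and none fell. The cell cycle genes did not return with them: 11 of 12 rose again in this comparison, and their summed level was 273 to 293 CPM in euploid, with 378 to 440.0 in Ts65Dn and 656 to 674 in Ts65Dn;Brwd1+/- libraries. Summed meninges and fibroblast markers were at 378 to 416 CPM in euploid, with 792 to 1114 in Ts65Dn and 316 to 343 in Ts65Dn;Brwd1+/- libraries. Summed astrocyte markers overlapped between all groups, at 3742 to 4585, 4318 to 4984 and 4311 to 4865 CPM. Other cell types differed too: summed endothelium and pericyte markers, of which Cldn5 was at 0 in every library, were at 138 to 162, 735 to 968 and 137 to 187 CPM in the 3 genotypes in turn. Kdr alone carried most of that sum, at 83.0, 754 and 112 CPM on average, while 3 of the 6 markers tested rose in Ts65Dn and Pecam1, at under 1 CPM in every library, was not among them. Oligodendrocyte lineage markers summed to 362 to 416, 613 to 714 and 960 to 1161 CPM, choroid plexus markers to 123 to 736, 215 to 274 and 35.8 to 48.6 CPM, and microglia markers to 8.91 to 19.3, 5.28 to 8.46 and 1.67 to 2.23 CPM. The 736 was euploid replicate 2, in which the choroid plexus gene Ttr was at 641 CPM, against 59.6 and 76.6 in the other euploid libraries. A ratio added after these values were seen set the clusters against the neuron markers. The alpha sum per 1000 CPM of the 12 neuron markers was 23.5 ± 2.11 CPM in euploid, with 28.1 ± 5.16 in Ts65Dn and 20.6 ± 0.543 in Ts65Dn;Brwd1+/- (mean ± SD, n = 3). Pcdhac2 made up 63.7% of the alpha sum in Ts65Dn and 56.0% in euploid, and the ratio of the variable alpha genes alone was 10.1 ± 0.917, 9.60 ± 1.03 and 10.2 ± 0.307 CPM, with overlapping groups. For Pcdha6 it was 1.03, 1.23 and 1.28 in euploid, with 0.795, 0.688 and 0.835 in Ts65Dn and 0.919, 1.1 and 0.825 in Ts65Dn;Brwd1+/- libraries. The Ts65Dn values of Pcdha6 lay below all euploid ones. Pcdha6 was the member with the largest fall in these same libraries, which favours such a result. No other single variable alpha gene was set against the markers. The same ratio was 41.3 ± 0.629, 82.8 ± 32.6 and 44.8 ± 2.29 CPM for beta and 99.1 ± 10.8, 295 ± 163 and 99.9 ± 11.6 for gamma genes. Pcdhgc3 per 1000 CPM of 12 astrocyte markers was 36.1 ± 3.29, 51.3 ± 9.94 and 38.1 ± 0.545 CPM. The part of cell makeup in the changes of single members was not tested.

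Genes that act on the clusters, a list of 23, had few calls in Ts65Dn against euploid. There 5 fell and none rose (21.7%, against 46.7% of all genes called), with Wiz, a partner of the H3K9 methyltransferases, at -0.43 (edgeR adjusted p = 0.0029), Tet1, a DNA demethylase, at -0.39 (adjusted p = 0.011) and the DNA methyltransferase Dnmt3a at -0.35 (adjusted p = 0.0076) on the log2 scale. Ctcf, which binds the variable promoters, was at 0.09 (adjusted p = 0.36), the cohesin subunit Rad21 at 0.16 (adjusted p = 0.11), the silencing factor Smchd1 at 0.11 (adjusted p = 0.29), Dnmt3b, whose level was 2.25 CPM in euploid, at -0.21 (adjusted p = 0.50) and the H3K9 methyltransferase Setdb1 at -0.02 (adjusted p = 0.81). In Ts65Dn;Brwd1+/- against Ts65Dn 13 rose and 1 fell (60.9%, against 58.1% of all genes), among them Dnmt1 at 0.84 (adjusted p = 1.5e-05), Tet1 at 0.71 (adjusted p = 0.0002), Dnmt3b at 0.67 (adjusted p = 0.028), Dnmt3a at 0.51 (adjusted p = 0.00061) and Ctcf at 0.25 (adjusted p = 0.017), with the cohesin release factor Wapl lower at -0.24 (adjusted p = 0.03). Against euploid 8 rose and none fell (34.8%, against 29.2% of all genes). Genes beside the clusters on chromosome 18 had 2 higher and 3 lower of 15 tested in Ts65Dn (33.3%, against 46.7% of all genes called).

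Non-clustered protocadherins, which lie outside the clusters and take no part in this promoter choice, mostly fell in Ts65Dn. There 8 of 11 fell and 2 rose (90.9%, against 46.7% of all genes called), led by Pcdh19 at -1.68 and Pcdh8 at -1.59 on the log2 scale (edgeR adjusted p = 0.0012 and 0.00051) and, upwards, Pcdh18 at 0.67 (adjusted p = 0.0015). In Ts65Dn;Brwd1+/- against Ts65Dn 8 rose and 2 fell (90.9%, against 58.1% of all genes), with Pcdh15 at 1.79 (adjusted p = 0.00028) and Pcdh19 at 1.51 (adjusted p = 0.0012). Among classical and type II cadherins 8 of 17 fell and 3 rose in the first comparison (64.7%, against 46.7% of all genes called). In the second, 11 rose and 2 fell (76.5%, against 58.1%). Of 21 partners and signalling genes, 10 fell and 3 rose in Ts65Dn (61.9%, against 46.7%). There Wasf1 and Cyfip2 of the WAVE complex, which binds protocadherin tails, were at -1.23 and -0.96 (edgeR adjusted p = 0.0036 and 0.0028). Wasf2 was at 0.90 (adjusted p = 0.00014). In the second comparison 12 rose and 3 fell (71.4%, against 58.1%).

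Peaks in adult hippocampus named almost only C-type isoforms. The lists are 1 per genotype and assay, so no replicate error can be given. In ATAC-seq of neuronal nuclei 2 of 15521 peaks named members in euploid, with 6 of 29195 in Ts65Dn and 7 of 30244 in Ts65Dn;Brwd1+/-. These peaks named 2, 4 and 5 of the 58 members, where the same lists named 19.4%, 25.9% and 25.9% of all gene lines. All were C-type but Pcdhga12, with 1 peak 21133 bp into its gene in Ts65Dn;Brwd1+/-, and no variable exon promoter had a peak in any list.

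The promoter of Pcdhgc3 was open in every genotype, by peaks at chr18:37806258-37806491 in euploid, chr18:37806186-37806500 in Ts65Dn and chr18:37806247-37806498 in Ts65Dn;Brwd1+/- (mm10), with fold enrichments of 4.54, 4.83 and 3.78. Promoter peaks of Pcdhac1 (fold 4.52 and 4.44), Pcdhac2 (fold 3.19 and 2.62) and Pcdhgc5 (fold 3.76 and 3.51) were listed in Ts65Dn and Ts65Dn;Brwd1+/- and not in euploid. The euploid list was shorter as a whole, with 15521 peaks against 29195 and 30244, and a missing promoter peak cannot be told apart from that. Pcdhac1 thus had an open promoter in sorted adult neurons while its RNA level in the cultures was among the lowest of the family. Pcdhgc4, the third most abundant C-type isoform per unique length in euploid, had no ATAC peak in any list. The peaks called Pcdhgc5 gene body in the lists, between 37842084 and 37842974, have their centres 0.34 to 0.99 kb past the annotated end of the gamma cluster.

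SMARCA2/4 peaks named 3 members in euploid hippocampus, all C-type. Of the 10 peaks, 6 named Pcdhac2, of which 3 lay within 1 kb of its start (at 191, 538 and 825 bp, fold 4.02, 4.52 and 3.23) and 3 in its body. The distances are those the lists give, which for Pcdhgc4 and Pcdhgc5 count from a start other than the annotated one. Pcdhgc5 had 3, at 93, 305 and 23247 bp (fold 3.94, 3.46 and 4.58), and Pcdhgc4 had 1 at 460 bp (chr18:37815870-37815962, fold 4.32). In Ts65Dn 0 peaks named a member, and in Ts65Dn;Brwd1+/- 2 did: Pcdhgc4 at chr18:37815944-37815991 (fold 4.2) and Pcdhgc5 at chr18:37819763-37819810 (fold 4.8), each overlapping a euploid peak by at least 1 bp. These counts have to be read beside the lists, which hold 22667, 1290 and 1873 peaks and name 14.9%, 1.57% and 1.85% of all gene lines in euploid, Ts65Dn and Ts65Dn;Brwd1+/-. The absence of a member from the Ts65Dn list cannot be told apart from the shortness of that list. Peaks with a q-value under 0.05 made up 87.8%, 31.8% and 58.2% of these lists, and of the 10 euploid peaks 7 had such a q-value.

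Other peaks inside the 911.7 kb domain named genes that are not members. Alpha cluster peaks in euploid ATAC-seq and SMARCA2/4 ChIP-seq named the non-coding Gm10544, and 1 SMARCA2/4 peak in the first exon region of Pcdhgc3 named the antisense BC037039 (fold 4.52). The strongest ATAC signal of the domain lay about 288 kb from the start of the first member, past the alpha constant exons and before the first beta gene, at chr18:37218111-37218445 in euploid (fold 5.34), chr18:37217823-37218491 in Ts65Dn (fold 8.15) and chr18:37217858-37218477 in Ts65Dn;Brwd1+/- (fold 6.29). The lists name the read-through model Gm37388 there. As background, an enhancer of the alpha genes is known to lie downstream of their constant exons; whether these peaks mark it was not tested. The beta cluster held 0 peaks in all 6 lists.

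**Figure D5:**
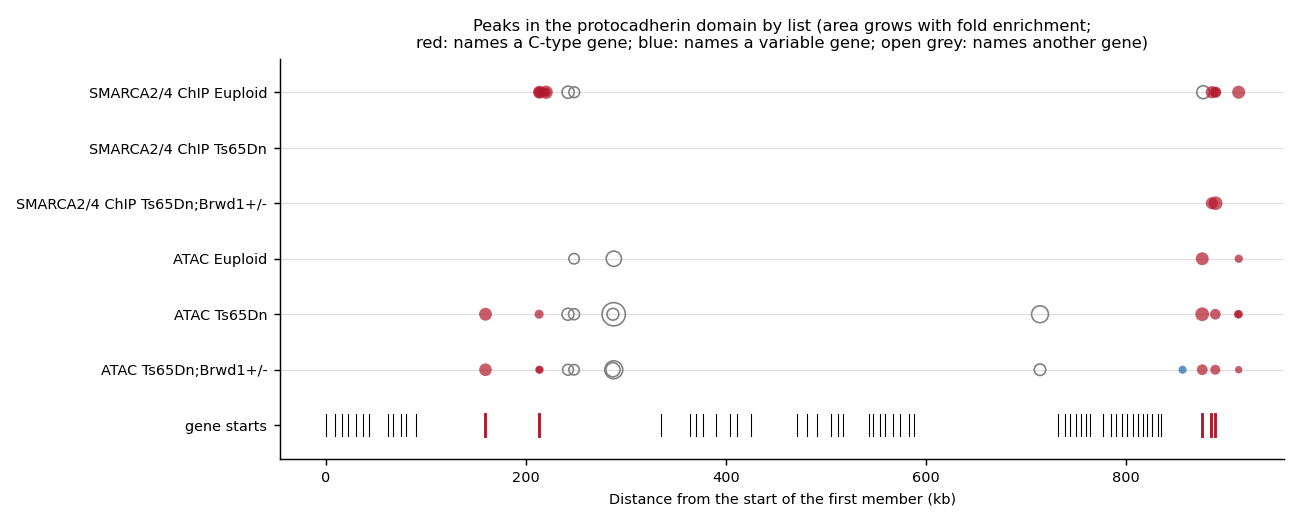
Peaks of the 6 lists by distance in kb from the start of the first member, with gene starts as ticks (C-type in red), filled red circles for peaks that name a C-type gene, blue for a variable gene and open grey for other genes, and area growing with fold enrichment. Peaks that name members sit at the C-type genes of the alpha and gamma ends, except the blue point, which names Pcdhga12; the beta genes have none, and the Ts65Dn ChIP-seq row is empty.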

How the data were processed

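RNA-seq libraries of 9 cultures and 6 peak lists were used. Counts per gene were deposited; the authors aligned reads with HISAT2 to mm10 and name featureCounts, though the files end with read totals of the htseq-count kind (37.4 to 40% of reads, 19.0 to 21.5% not uniquely aligned), which were left out. The kit does not mark strand. Peak lists as deposited by the authors give fold enrichment (a ratio) and a q-value from MACS, 1 list per genotype and assay; how replicates were pooled is not given in the sources used here.

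Counts were tested with edgeR 4.0.16 (R 4.3.3; filterByExpr, TMM, quasi-likelihood F-test, all 9 libraries, Benjamini-Hochberg over 17173 genes, threshold 0.05), checked on simulated data. CPM used TMM-scaled totals. Unique exon bases came from GENCODE vM21; the second gene model named Pcdha11 there is Pcdha10 in RefSeq and is called so. DESeq2 1.42.0, other scalings, filters, a residual factor, a replicate block and libraries left out were alternatives. Same-numbered Ts65Dn and euploid libraries deviated together (r = 0.129, 0.206 and 0.263). The main test did not pair them, and the replicate block was run only as an alternative. In the other comparisons not every same-numbered pair deviated together (r = -0.125 to 0.279 and -0.162 to 0.186). Labels do not say that replicates came from separate litters, so p-values measure the spread between these libraries. Named genes were the C-type isoforms, the 3 members per cluster with the highest mean CPM, the 3 largest rises and falls per comparison, members with SMARCA2/4 peaks, and preset or leading genes of the other lists. Members and lists were chosen with earlier results of these data known. Pcdha1, Pcdha8, Pcdhb4, Pcdhb11, Pcdhb15, Pcdhb16, Pcdhb18, Pcdhb19, Pcdhb21, Pcdhga9, Dnmt3a, Kdr, Pecam1 and Ttr were named after their values were seen.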

Additional observations from a re-analysis of the deposited data

How the results depend on the processing

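The count of members called in Ts65Dn against euploid was 29 and stayed between 23 and 37 under all 15 alternatives, and that in Ts65Dn;Brwd1+/- against Ts65Dn was 36 and stayed between 29 and 40; 21 and 25 members were called under every one of them, and no member was called in the opposite direction. In Ts65Dn;Brwd1+/- against euploid the 11 became 17 with a replicate block, 18 at a threshold of 0.1 and 22 with 1 residual factor. With a library left out the count was 6 to 11. Both ends of that range include Pcdha8, which passes the filter only through the group where it is high. With the replicate block the other counts were 31 and 38. It added calls for Pcdhb9 and Pcdhb18 in the first comparison, Pcdhb19 and Pcdhga9 in the second, and Pcdha9, Pcdha12, Pcdhb15, Pcdhb17, Pcdhb21 and Pcdhgb8 in the third; in the last 2 the numbers only name the libraries. In the first comparison the rises were 3 in place of 6 with no low-count filter, by DESeq2, and with only the 6 libraries compared. With library size alone, the summed CPM of the gamma cluster, Ts65Dn;Brwd1+/-, was 530.5 and the summed CPM of the C-type isoforms, Ts65Dn;Brwd1+/-, was 310.3.

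Signs turned for values near 0 that passed in no setting listed here. Leaving out 1 library gave log2 differences in Ts65Dn against euploid of -0.0894 to 0.061 for Pcdhga3 and -0.428 to 0.192 for Pcdhac1. In Ts65Dn;Brwd1+/- against euploid they were -0.139 to 0.038 for Pcdhgc4, -0.199 to 0.00018 for Pcdhb22, -0.0682 to 0.24 for Pcdhb9 and -0.0187 to 0.104 for Smchd1, and in Ts65Dn;Brwd1+/- against Ts65Dn -0.181 to 0.173 for Pcdhgc5. Upper-quartile scaling gave 0.0103 for Pcdhga3 and 0.0036 for Setdb1 in the first comparison, and the stricter filter 0.0013 for Pcdhgc4 in the third. Peaks shared between Ts65Dn ATAC and euploid SMARCA2/4 lists, and between euploid and Ts65Dn;Brwd1+/- SMARCA2/4 lists, were 1 in place of 2 when an overlap of 0.5 of the shorter peak was asked. The causes were not tested. Counts under about 10 per library and the short trisomic SMARCA2/4 lists limit what could be seen.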
